A study of Mus musculus with 8 samples.

Results

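The gasdermins *Gsdmc*, *Gsdmc2*, *Gsdmc3*, *Gsdmc4* and *Gsdmd* were followed in bulk RNA-seq of the distal colon of 8 male mice. These are 5 of the 15859 genes counted, and 4 of them had a high enough mean count to be among the 14371 genes tested. The genes were chosen on their levels in these same mice, so the differences below describe them and are not independent evidence. The mice were WT or *Hsf1* null littermates (null mice below) on a mixed BALB/c x 129SvEV background, with 2 mice in each of 4 groups. *Hsf1* encodes heat shock factor 1, the transcription factor that drives the heat shock response. Untreated WT and *Hsf1* null mice (day 0) were age-matched controls. Treated WT and *Hsf1* null mice (day 15) were injected with the carcinogen azoxymethane (AOM, 10 mg/kg) when 8 weeks old and then drank 1.5% dextran sulfate sodium (DSS), a chemical that damages the gut lining, for 5 days. All mice are labelled as 10 weeks old, and the design text gives a slightly younger age. The titles and the study's methods place collection of the treated mice at day 15, a few days after the end of DSS, whereas the protocol text in the labels has them killed directly after it.

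Gasdermins are pore-forming proteins that lie inactive in the cytosol. Proteases cut them, and the freed N-terminal part inserts into membranes, where it lets interleukins out and can end in a lytic cell death called pyroptosis. Gsdmd is the substrate of the inflammatory caspases that inflammasomes activate. The Gsdmc proteins are cut by caspase 8, and in the mouse intestine their genes are known to be expressed by epithelial cells and to be induced by the type 2 cytokines IL-4 and IL-13 through STAT6.

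The 4 *Gsdmc* genes lie side by side on the minus strand of chromosome 15, between positions 63775968 and 63912297 of GRCm38, a span of 136 kb. They are *Gsdmc* (ENSMUSG00000079025, 63775968 to 63808759), *Gsdmc2* (ENSMUSG00000056293, 63824346 to 63845177), *Gsdmc3* (ENSMUSG00000055827, 63857724 to 63878558) and *Gsdmc4* (ENSMUSG00000055748, 63891264 to 63912297). *Gsdmd* (ENSMUSG00000022575, plus strand) is farther along the same chromosome, from 75862327 to 75867408. *Hsf1* is also on chromosome 15, from 76477422 to 76501913. The gap to *Hsf1* is 0.610 Mb for *Gsdmd* and between 12.6 and 12.7 Mb for the *Gsdmc* genes, so an effect of the *Hsf1* genotype and one of a chromosome segment inherited with it cannot be told apart. The *Gsdmc* genes are close copies of each other. Of all windows of 50 bases in their exons, 48.5% in *Gsdmc2*, 46.9% in *Gsdmc3*, 39.0% in *Gsdmc4* and 16.4% in *Gsdmc* also occur in another gasdermin, against 0% in *Gsdmd*. Reads can therefore be split between *Gsdmc2*, *Gsdmc3* and *Gsdmc4*, and the value of each is less certain than their sum.

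Of the 5 genes, *Gsdmc3* was matched in the RefSeq promoter table used here, and its promoter is shown as the only one held there. This gene also had the largest fitted difference between the genotypes at day 15 among the gasdermins. It runs from 250 bases before to 50 bases after the gene start (RefSeq, GRCm38.p6, chr15:63878509-63878808, minus strand, 5′ to 3′).
Gsdmc3 promoter: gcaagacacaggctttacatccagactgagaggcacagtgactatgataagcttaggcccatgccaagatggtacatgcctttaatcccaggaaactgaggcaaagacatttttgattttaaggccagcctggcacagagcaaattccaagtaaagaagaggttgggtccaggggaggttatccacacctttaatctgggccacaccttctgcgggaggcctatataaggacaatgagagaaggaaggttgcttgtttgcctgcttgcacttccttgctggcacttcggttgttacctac
It holds 0 heat shock elements, searched on both strands as 3 alternating GAA and TTC units with any 2 bases between units, a pattern found in 198 of 32544 RefSeq promoters of this length (0.608%). It also holds 0 copies of the STAT6 motif, TTC and GAA with any 4 bases between them, which 2271 of the 32544 hold (6.98%). These letters are not in this window, and nothing follows from that for either factor.

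Libraries held between 2553348 and 12440257 counts, and replicate 2 of both day 0 groups were the 2 smallest. A count of 1 corresponded to between 0.0821 and 0.397 CPM, the count scaled to a common library size by the TMM method. *Hsf1*, the targeted gene, was at between 36.5 and 50.4 CPM in the 4 WT mice and between 9.09 and 14.0 CPM in the 4 null mice, which separates the genotypes as labelled. All 12 pan-epithelial markers had counts in every mouse, with summed levels between 10881 and 25219 CPM. A gene was called when its Benjamini-Hochberg adjusted p in edgeR's quasi-likelihood test was under 0.05 and its absolute log2 fold change was above 1. Fold changes between genotypes are WT relative to *Hsf1* null.

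To ask how the treated colon differs with *Hsf1*, WT and null mice were compared at day 15. *Gsdmc2* and *Gsdmc3* RNA was far lower in treated WT mice than in treated null mice. *Gsdmc4* had the same direction without passing the test, and *Gsdmd* levels of the genotypes overlapped. The WT mice had *Gsdmc2* levels of 9.04 and 23.1 CPM, and the null mice of 195 and 118 CPM. Both WT mice were below both null mice, and the means were 9.77-fold apart by the fit (log2 fold change -3.29, SE 0.46, 95% interval -4.31 to -2.27, adjusted p = 0.0137 from edgeR).
*Gsdmc3* was at 3.04 and 6.97 CPM in WT mice and at 183 and 81.8 CPM in null mice. It was the gasdermin with the largest fitted difference here, 26.6-fold (log2 fold change -4.73, SE 0.54, 95% interval -5.94 to -3.52, adjusted p = 0.00804 from edgeR). Counted from the most negative log2 fold change among the 14371 tested genes, *Gsdmc3* ranked 13, *Gsdmc4* 41 and *Gsdmc2* 67.
*Gsdmc4* was at 0.782 and 17.8 CPM in WT mice and at 117 CPM in each of the null mice. The groups did not overlap, but the 2 WT mice were far apart, and the difference did not pass the threshold (log2 fold change -3.68, SE 1.02, 95% interval -5.95 to -1.40, adjusted p = 0.0742 from edgeR). *Gsdmc*, the gene that names the cluster, was barely detected. It had 0 counts in both WT mice and 3 and 0 counts in the null mice at day 15. A count of 0 allows up to 3 counts, or 0.261 and 0.317 CPM in these WT mice, for counting error only, and no difference could be seen at this depth.
Thus 2 of the 4 tested gasdermins were called at day 15, both lower in WT mice, where 3.17% of all tested genes were called in either direction. Since the genes were picked for this pattern, nothing is read from that share. It rests on 455 genes, a count that fell to 12 without either *Hsf1* null day 0 mouse, to 19 without replicate 2 of WT day 15 and to 30 without replicate 1 of *Hsf1* null day 15, and was 871 without replicate 2 of *Hsf1* null day 15. The size of the fold also depended on single mice. Leaving out each in turn gave log2 fold changes between -4.11 (without replicate 2 of WT day 15) and -2.76 (without its replicate 1) for *Gsdmc2*, and between -5.43 (without replicate 2 of WT day 15) and -4.05 (without replicate 1 of *Hsf1* null day 15) for *Gsdmc3*. Among the alternatives run, the *Gsdmc3* call was lost only when the model was fitted to the 4 day 15 mice alone (adjusted p = 0.0504), and that of *Gsdmc2* was lost there (0.0692) and when replicate 1 or 2 of *Hsf1* null day 0 or replicate 1 of *Hsf1* null day 15 was left out (0.0522, 0.0528 and 0.0655 from edgeR). For *Gsdmc4* leaving out each mouse gave log2 fold changes between -7.20 (without replicate 2 of WT day 15) and -2.72. With all 8 mice and counts thinned to the smallest library *Gsdmc4* was called (-4.22, adjusted p = 0.0214 from edgeR). It was also called under a replicate block with the WT mice of day 0 exchanged, which was added after the data were seen (-3.77, adjusted p = 0.0436). Of the 8 alternatives that left no single mouse out, 6 did not change its status as not called.

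**Figure D1:**
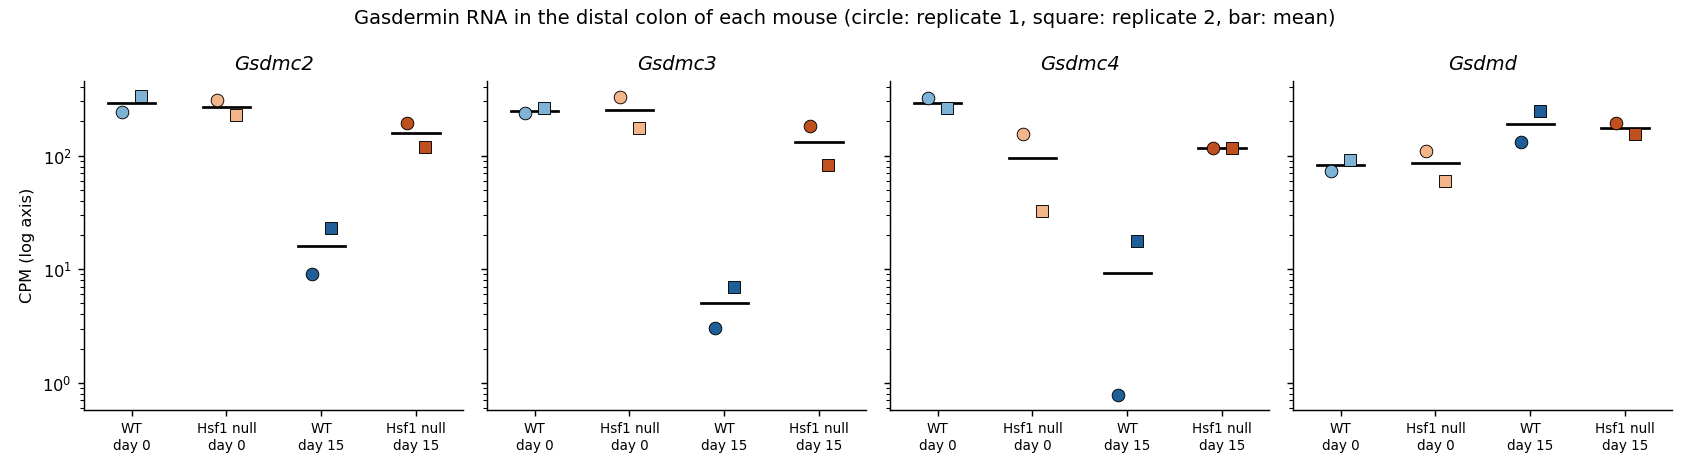
RNA levels (CPM, log axis) of *Gsdmc2*, *Gsdmc3*, *Gsdmc4* and *Gsdmd* in each mouse of the 4 groups on the horizontal axis, with circles for replicate 1, squares for replicate 2 and bars for group means. In the 3 *Gsdmc* genes both WT mice at day 15 sit below all 6 other mice, whereas for *Gsdmd* both groups at day 15 sit above both groups at day 0.

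Before treatment, no gasdermin passed the test between the genotypes. *Gsdmc2* was at 242 and 335 CPM in untreated WT mice and at 308 and 226 CPM in untreated null mice, and the groups overlapped (log2 fold change 0.11, 95% interval -0.81 to 1.03). *Gsdmc3* was at 237 and 262 CPM in WT mice and at 331 and 174 CPM in null mice, again with overlap (log2 fold change -0.03, 95% interval -1.03 to 0.98). The intervals are wide, and smaller differences were not detectable with 2 mice per group.
*Gsdmc4* had the largest fitted difference of the gasdermins in untreated mice. Its log2 fold change moved between 0.90 and 3.15 when each mouse was left out in turn. Its levels were 321 and 260.3 CPM in WT mice and at 156 and 32.7 CPM in null mice. Both WT mice were above both null mice, the reverse of day 15, but the null mice were far apart and the difference did not pass the threshold (log2 fold change 1.60, SE 0.92, 95% interval -0.45 to 3.64, adjusted p = 0.816 from edgeR). *Gsdmd* was at 72.5 and 91.7 CPM in WT mice and within a wider range, 111 and 60.0 CPM, in null mice. *Gsdmc* had 7 and 2 counts in WT mice and 3 and 0 in null mice.
None of the 4 tested gasdermins was called at day 0 by edgeR or DESeq2, and 0% of all tested genes were called by edgeR. Of the 14371 tested genes, 904 had an unadjusted p under 0.05 in edgeR at day 0, and DESeq2 called 18.

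Next, the response to AOM–DSS was compared within each genotype. In WT mice *Gsdmc2*, *Gsdmc3* and *Gsdmc4* all fell with treatment. From the levels given above, the log2 fold change was -4.17 for *Gsdmc2* (18.0-fold lower at day 15, SE 0.47, adjusted p = 0.00573 from edgeR), -5.65 for *Gsdmc3* (50.1-fold lower, SE 0.56, adjusted p = 0.00296) and -4.98 for *Gsdmc4* (31.7-fold lower, SE 1.07, adjusted p = 0.0263). For all 3, both treated WT mice were below both untreated WT mice. That makes 3 of the 4 tested gasdermins called, all lower at day 15, where 7.74% of all tested genes were called in either direction. *Gsdmc4* lost its call when replicate 1 or replicate 2 of WT day 0 was left out (adjusted p = 0.0524 and 0.0735 from edgeR) or when the WT mice were fitted alone (0.0580). Its log2 fold change was -8.51 without replicate 2 of WT day 15 and -4.03 without replicate 1. The same 2 omissions gave -4.99 and -3.64 for *Gsdmc2* and -6.35 and -5.16 for *Gsdmc3*. *Gsdmc* went from 7 and 2 counts to 0 counts in both mice.
In null mice the fitted changes of these genes were smaller, and 0 of the 4 tested gasdermins were called, where 11.8% of all tested genes were. *Gsdmc2* had a log2 fold change of -0.77 (95% interval -1.70 to 0.15, adjusted p = 0.227 from edgeR), with both treated null mice below both untreated ones. *Gsdmc3* had one of -0.94 (95% interval -1.95 to 0.07, adjusted p = 0.182 from edgeR), and its groups overlapped. *Gsdmc4* was at 117 CPM in each treated null mouse, between the untreated mice (log2 fold change 0.29, 95% interval -1.72 to 2.29). By edgeR 4685 of the 14371 tested genes had an unadjusted p under 0.05 in this comparison, *Gsdmd* (0.0202) among them, and DESeq2 called 1 gasdermin, *Gsdmd*.
The difference between the genotypes in their response was tested as an interaction. The change in WT mice minus that in null mice was -3.40 for *Gsdmc2* (95% interval -4.75 to -2.05), -4.71 for *Gsdmc3* (-6.24 to -3.18) and -5.27 for *Gsdmc4* (-8.32 to -2.23) on the log2 scale. Unadjusted p from edgeR were 0.000228, 4.55e-05 and 0.00317, but over all tested genes the adjusted p were 0.210, 0.102 and 0.383, so 0 of the 4 tested gasdermins were called. Only 0.00696% of all tested genes, a single gene that is no gasdermin, were called in this comparison by edgeR, and 1238 had an unadjusted p under 0.05. DESeq2, which called 130 genes for the interaction, called *Gsdmc2* and *Gsdmc3* (adjusted p = 7.2e-06 and 2.76e-10). The size of the interaction depended on single mice. Leaving out each in turn gave -4.22 to -2.87 for *Gsdmc2*, -5.41 to -4.01 for *Gsdmc3* and -8.80 to -4.32 for *Gsdmc4*.

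**Figure D2:**
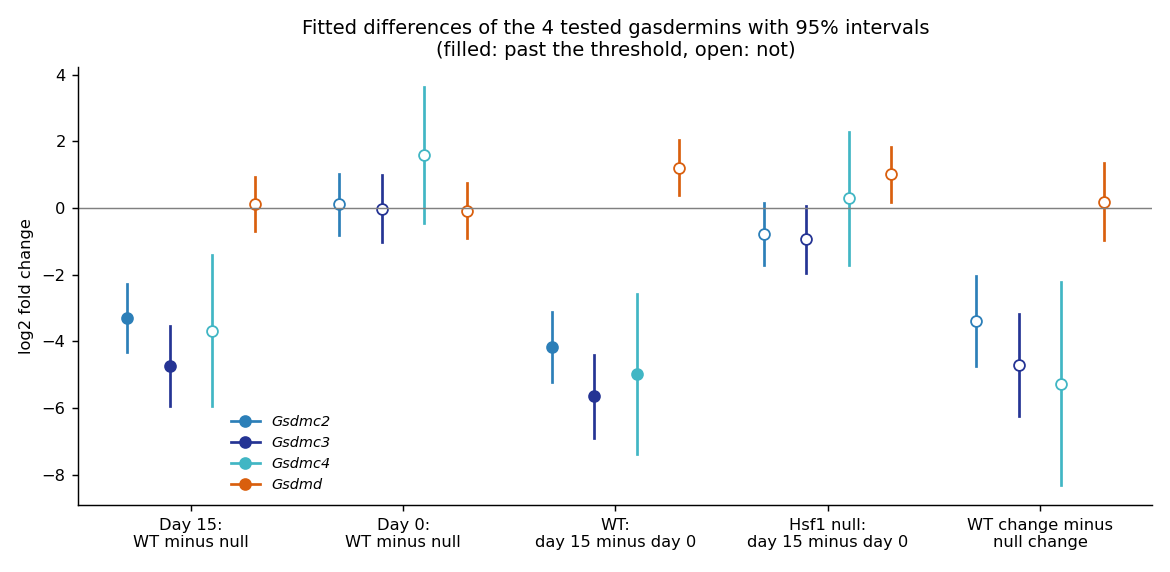
Fitted log2 fold changes (vertical axis) of the 4 tested gasdermins in the 5 comparisons (horizontal axis), with 95% intervals as lines, filled circles for differences past the threshold and open circles for the others. The 3 *Gsdmc* genes lie below 0 at day 15, in the WT response and in the difference between responses, and near 0 or with intervals that span it at day 0 and in the *Hsf1* null response.

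Because reads can be split among the close copies, the counts of *Gsdmc*, *Gsdmc2*, *Gsdmc3* and *Gsdmc4* were also summed. The sum was 800.4 and 858 CPM in untreated WT mice and 796 and 433 CPM in untreated null mice. At day 15 it was 12.9 and 47.9 CPM in WT mice and 496 and 317 CPM in null mice. The group means were 829 ± 40.6 CPM (SD, n = 2) in WT day 0, 614 ± 257 CPM in *Hsf1* null day 0, 406 ± 126 CPM in *Hsf1* null day 15 and 30.4 ± 24.8 CPM in WT day 15. In that order, WT day 0 and *Hsf1* null day 0 differed by less than their spread, *Hsf1* null day 0 and day 15 overlapped, and WT day 15 stood clear of the group next to it. The ratio of means was 13.4 between *Hsf1* null and WT mice at day 15 and 27.3 between day 0 and day 15 in WT mice, but 1.51 between the days in null mice.
These genes are epithelial, and in bulk tissue fewer epithelial cells and less RNA per cell cannot be told apart. The summed level of the 12 pan-epithelial markers was 16353 and 16976 CPM in WT mice and 25219 and 21535 CPM in null mice at day 15, with 0 of the 12 called. Per 1000 CPM of those markers, the *Gsdmc* sum was 0.787 and 2.82 in WT mice and 19.7 and 14.7 in null mice, a ratio of means of 9.53. At day 0 it was 73.6 and 53.6 in WT mice and 44.0 and 36.2 in null mice, higher in WT mice without overlap (ratio of means 1.59). Relative to these markers, then, the sum was still lower in treated WT mice, and it was also lower in treated than in untreated null mice, with a ratio of means of 2.33 and no overlap.
Markers of absorptive colonocytes, the mature surface cells of the colon, moved in part with the *Gsdmc* genes, and their part in the result was not tested. Of the 9 in the count table, 1 was called lower in WT mice at day 15, beside 3.17% of all tested genes in either direction. It was *Aqp8*, a water channel (log2 fold change -3.93, adjusted p = 0.0210 from edgeR). In all, 8 of the 9 were fitted lower in WT mice, with a list median of -0.84. Their summed level was 1215 and 2990 CPM in WT mice and 7315 and 3512 CPM in null mice at day 15. In untreated mice it was 3434 and 6115 CPM in WT mice and 9231 and 9046 CPM in null mice, also without overlap, and 8 of the 9 were fitted lower in WT mice there too (median -0.36, 0 called). Per 1000 CPM of colonocyte markers, the *Gsdmc* sum was 10.6 and 16.0 in WT mice and 67.8 and 90.3 in null mice at day 15, a ratio of means of 5.94. At day 0 it was 233 and 140.3 in WT mice and 86.2 and 47.8 in null mice. On that scale the treated and untreated null mice overlapped, and the ratio of means between day 0 and day 15 in WT mice was 14.0. The untreated WT mice were above the untreated null mice without overlap, with a ratio of means of 2.79, the reverse of day 15.

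**Figure D3:**
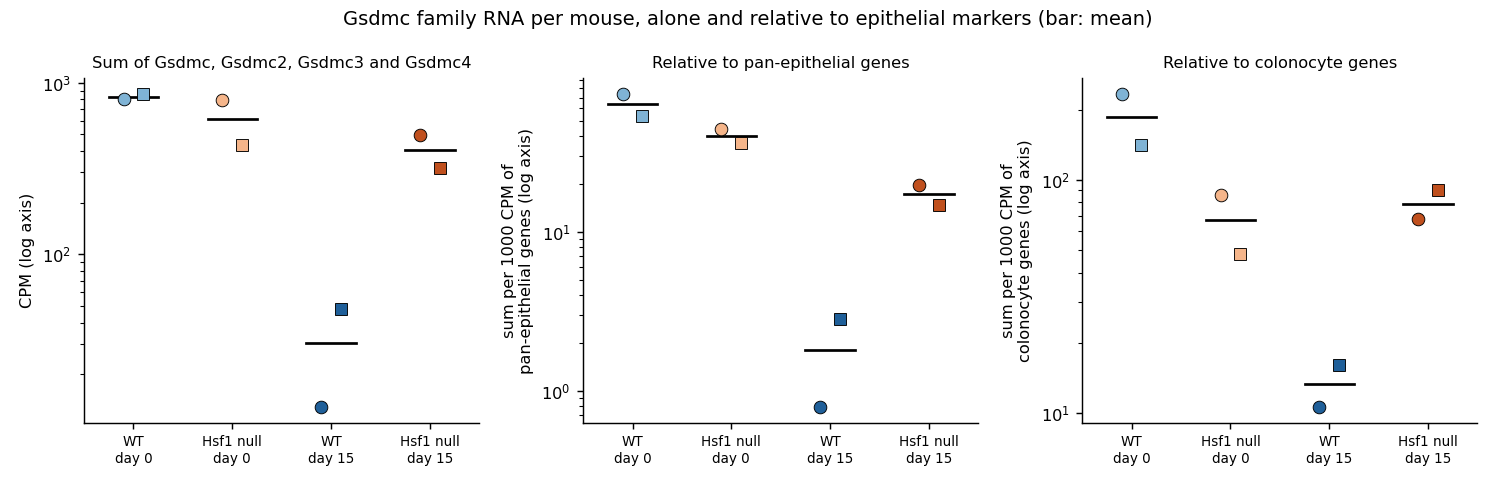
Summed *Gsdmc*, *Gsdmc2*, *Gsdmc3* and *Gsdmc4* RNA in each mouse (vertical axes, log scale) in CPM, per 1000 CPM of 12 pan-epithelial markers and per 1000 CPM of 9 colonocyte markers, by group, with bars for means, circles for replicate 1 and squares for replicate 2. On each of the 3 scales both WT mice at day 15 are below all 6 other mice.

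The make-up of the sum also varied between mice. *Gsdmc4* gave 40.1% and 30.3% of the summed counts in untreated WT mice (95% Wilson intervals 39.0 to 41.1 and 28.4 to 32.3) and 19.6% and 7.55% in untreated null mice (18.8 to 20.4 and 6.19 to 9.18). At day 15 it gave 6.08% and 37.2% in WT mice (3.23 to 11.2 and 32.9 to 41.8), where the sum held 148 and 454 counts. In null mice at day 15 it gave 23.7% and 37.0%. Differences of this size between mice of the same group are beyond the counting intervals, which cover counting error only. The share thus separated the genotypes at day 0 and not at day 15.
*Gsdmc3* gave 29.6% and 30.5% of the sum in untreated WT mice, 41.6% and 40.2% in untreated null mice, 23.6% and 14.5% in treated WT mice and 36.9% and 25.8% in treated null mice. *Gsdmc2* gave between 30.3% and 52.2% in the 6 mice outside WT day 15 and 70.3% and 48.2% in treated WT mice. In both treated WT mice it was the most abundant of the 4 genes, also per kilobase of exon.

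**Figure D4:**
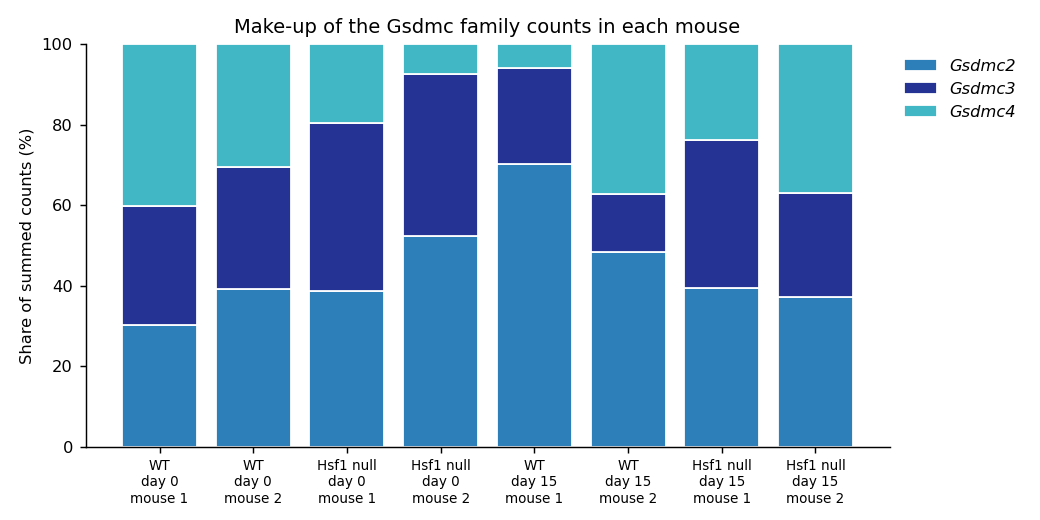
Shares (%, vertical axis) of *Gsdmc2*, *Gsdmc3* and *Gsdmc4* in the summed *Gsdmc* family counts of each of the 8 mice (horizontal axis). *Gsdmc* itself is in the sum but too rare to draw. The *Gsdmc4* share ranges from 6.08% in mouse 1 of WT day 15 to 40.1% in mouse 1 of WT day 0.

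*Gsdmd*, the substrate of the inflammatory caspases, passed the threshold in no comparison by edgeR. Levels at day 15 were 132 and 246 CPM in WT mice and 194 and 153 CPM in null mice, so that the null mice lay between the WT mice (log2 fold change 0.12, SE 0.36, 95% interval -0.68 to 0.92, adjusted p = 0.875 from edgeR). In WT mice the log2 fold change from day 0 to day 15 was 1.21 (SE 0.37, 95% interval 0.38 to 2.03, adjusted p = 0.0710 from edgeR). In null mice it was 1.01 (SE 0.37, 95% interval 0.19 to 1.83, adjusted p = 0.0912). In both genotypes the treated mice were above the untreated mice without overlap, and neither change passed the threshold in edgeR, whereas both did in DESeq2 (adjusted p = 0.0159 and 0.0421). The interaction was 0.20 on the log2 scale (95% interval -0.95 to 1.34).
Levels of different genes were compared per kilobase of exon. How reads shared between the *Gsdmc* genes were counted is not given. If they were dropped, these genes would read too low beside *Gsdmd*. In untreated WT mice *Gsdmc4* was at 139 ± 20.5 CPM per kb (SD, n = 2), *Gsdmc2* at 125 ± 28.3, *Gsdmc3* at 107 ± 7.63, *Gsdmd* at 34.5 ± 5.70 and *Gsdmc* at 0.308 ± 0.0317. *Gsdmc2* overlapped with *Gsdmc4* and with *Gsdmc3*. In untreated null mice *Gsdmc2* was at 115 ± 25.1, *Gsdmc3* at 109 ± 47.7, *Gsdmc4* at 45.2 ± 41.8 and *Gsdmd* at 35.9 ± 15.1 CPM per kb. There *Gsdmc2* and *Gsdmc3* overlapped, as did *Gsdmc4* and *Gsdmd*. In treated WT mice the order was turned, with *Gsdmd* at 79.4 ± 33.9 CPM per kb above *Gsdmc2* at 6.95 ± 4.30, *Gsdmc4* at 4.46 ± 5.78 and *Gsdmc3* at 2.15 ± 1.19. *Gsdmd* stood clear of these, whereas *Gsdmc4* overlapped with *Gsdmc2* and with *Gsdmc3*. In treated null mice *Gsdmd* at 73.0 ± 12.0, *Gsdmc2* at 67.6 ± 23.6, *Gsdmc3* at 56.8 ± 30.7 and *Gsdmc4* at 56.2 ± 0.00440 CPM per kb overlapped with the next in order.

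The other gasdermins in the count table were *Gsdma*, *Gsdme* (listed under its older symbol *Dfna5*) and *Gsdmcl-ps*, a pseudogene beside *Gsdmc4*, and 0 of these 3 were called in any comparison. *Gsdme*, a gasdermin cut by caspase 3, was at between 1.79 and 4.76 CPM in all 8 mice. *Gsdma*, known from skin, was at between 1.44 and 4.01 CPM. *Gsdmcl-ps* followed the direction of its neighbours at day 15, at 0.174 and 1.16 CPM in WT mice and 1.86 and 4.28 CPM in null mice, without passing the threshold (log2 fold change -2.22, SE 0.88, adjusted p = 0.169 from edgeR).

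The genes that act before and after gasdermins in this pathway were described from a list of 26 inflammasome sensors, adaptors, caspases, other proteases, released cytokines and *Ninj1*, which ruptures the membrane after pore formation. Of these, 24 were in the count table and 22 were tested. At day 15, 2 were called higher and 1 lower in WT mice, where 3.17% of all tested genes were called in either direction. The list median was 0.04 on the log2 scale, beside 0.04 over all tested genes. The interleukin gene *Il1b* was at 11.6 and 72.5 CPM in WT mice and 1.86 and 4.68 CPM in null mice (log2 fold change 3.66, adjusted p = 0.0461 from edgeR). *Ninj1* was at 50.5 and 53.0 CPM in WT mice and 22.5 and 15.5 CPM in null mice (1.45, adjusted p = 0.0355). The sensor gene *Naip1* was lower in WT mice, at 439 and 413 CPM against 1040 and 1228 CPM (-1.41, adjusted p = 0.0258), and its value is uncertain because the *Naip* genes are close copies. These calls are fragile, since leaving out a single mouse left between 0 and 4 genes of the list called. Their balance of directions changed as well, to 0 higher and 2 lower with thinned counts, 0 and 4 without replicate 2 of *Hsf1* null day 15, and 4 and 4 with DESeq2.
In the WT response *Il1b* rose (log2 fold change 4.03, adjusted p = 0.0265 from edgeR), and *Naip2* and *Naip6* fell (-1.23 and -1.24, adjusted p = 0.0412 and 0.0485). Thus 1 gene of the list was called higher and 2 lower of 22, where 7.74% of all tested genes were called in either direction. The list median was -0.25 beside 0.00 over all tested genes. In the *Hsf1* null response 2 genes of the list were called higher and 3 lower of 22, where 11.8% of all tested genes were called in either direction, and the list median was -0.18 beside 0.05 over all tested genes. Of the called genes, *Nlrp1b* and *Naip1* rose (4.67 and 1.22, adjusted p = 0.0198 and 0.0211) and *Naip6* and *Ninj1* fell (-1.56 and -1.47, adjusted p = 0.0211 and 0.0202 from edgeR). *Nlrp1b* was at 0.410 and 0.718 CPM in untreated null mice and at 21.9 and 4.01 CPM in treated ones. In WT mice it was at 15.1 and 9.52 CPM before and 2.17 and 3.80 CPM after treatment. The untreated null mice were thus below all 6 other mice, but *Nlrp1b* was called neither between genotypes at day 0 (log2 fold change 4.63, adjusted p = 0.775 from edgeR) nor in the WT response (-2.07, adjusted p = 0.101). At day 0, 0 of the 22 genes were called between genotypes by edgeR and 1 by DESeq2, *Nlrp1b* (4.62, adjusted p = 0.00136).
Neither *Casp1* nor *Casp8* was called at day 15. *Casp1*, which cuts Gsdmd, was at 50.2 and 109 CPM in WT mice, against 124 and 105 CPM in null mice at day 15. *Casp8*, which cuts Gsdmc, was at 96.2 and 137 CPM in WT mice, against 57.7 and 119 CPM in null mice. The groups overlapped for both.

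**Figure D5:**
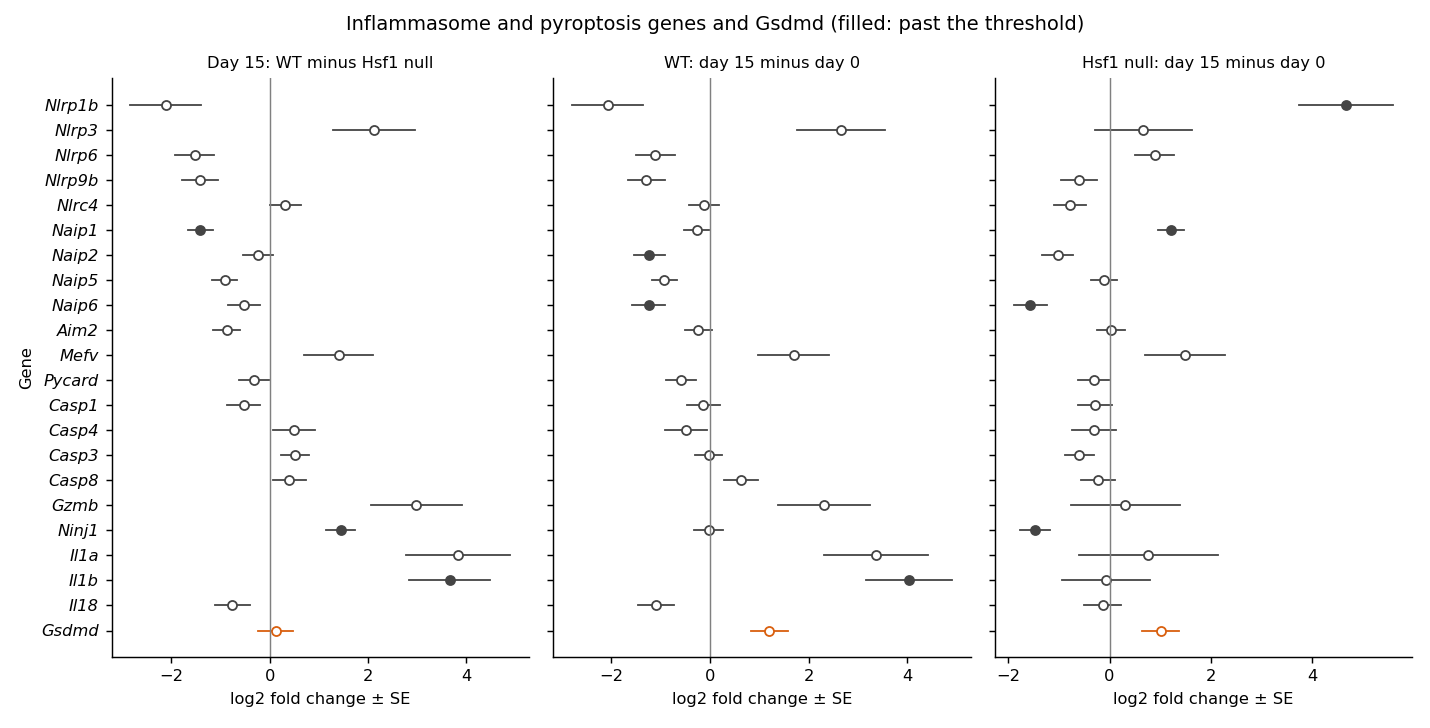
Log2 fold changes (horizontal axis) with SE as lines for the inflammasome and pyroptosis genes reported singly and, in orange, *Gsdmd* (vertical axis), between genotypes at day 15 and between days in each genotype. Filled circles passed the threshold, 3 genes of the list in the first panel, 3 in the second and, in the third, 4 of the 5 called, and *Gsdmd* passed in none.

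Of 17 genes of the type 2 cytokine axis, which is known to induce the *Gsdmc* genes, 11 were in the count table and all 11 were tested. *Il4*, *Il5*, *Il9*, *Il13*, *Il25* and *Chil4* were not in the table used here. At day 15, 2 were called higher and 0 lower in WT mice, where 3.17% of all tested genes were called in either direction. The list median log2 fold change was 0.81 beside 0.04 over all tested genes. *Il33*, an epithelial and stromal alarmin, was at 9.74 and 59.2 CPM in WT mice and 3.57 and 3.74 CPM in null mice (log2 fold change 3.23, adjusted p = 0.0443 from edgeR). *Chil3*, a gene of alternatively activated macrophages and of neutrophils, was at 9.22 and 4.22 CPM in WT mice and 0 and 0.267 CPM in null mice. In the WT response 4 were called higher, *Chil3*, *Il33*, *Il4ra* and *Il2rg*, and 0 lower. Over all tested genes 7.74% were called in either direction. The list median was 1.58 beside 0.00 over all tested genes. *Il4ra*, the receptor chain shared by IL-4 and IL-13, had a log2 fold change of 2.14 (adjusted p = 0.0327 from edgeR), with 28.6 and 9.52 CPM before and 68.4 and 108 CPM after treatment. In the *Hsf1* null response only *Il13ra1*, the other chain of the IL-13 receptor, was called, and it fell (-2.05, adjusted p = 0.0140 from edgeR). That is 1 of 11 genes, where 11.8% of all tested genes were called in either direction. Positive fitted changes were seen for 8 of the 11 genes, and the list median was 0.74 beside 0.05 over all tested genes. *Stat6* was at between 90.9 and 177 CPM in all 8 mice and was not called. The day 15 calls were again fragile, with 0 or 1 of the list called when any mouse was left out and 0 with the replicate number as a block.

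Markers of other cell types moved with the low *Gsdmc* levels, and their part in the result was not tested. Their calls at day 15 stand beside 3.17% of all tested genes called in either direction. Of 6 tested neutrophil markers (7 were in the table), 4 were called higher in WT mice at day 15, with summed levels of 126 and 513 CPM in WT mice, 6.51 and 22.7 CPM in null mice and between 3.59 and 11.4 CPM in the 4 untreated mice. *Ngp* had 0 counts in both null mice at day 15 and *S100a8* in 1 of them. Macrophage markers, 2 of 8 called higher, summed to 1522 and 2354 CPM in WT mice, against 408 and 919 CPM in null mice. Goblet cell markers, 3 of 8 called lower, summed to 6975 and 9153 CPM in WT mice, against 38799 and 18730 CPM in null mice. Among tuft cell, T cell, fibroblast and smooth muscle markers, 0 were called at day 15. Their summed levels did not overlap between the genotypes, but neither did those of any other marker list, the pan-epithelial one included. The share of all tested genes without overlap was not counted, so nothing is read from this. Fibroblast markers summed to 2320 and 2342 CPM in WT mice and 438 and 1407 CPM in null mice, with all 6 fitted higher in WT mice. T cell markers summed to 127 and 215 CPM against 56.1 and 92.3 CPM, with all 8 fitted higher. Tuft cell markers summed to 37.0 and 94.7 CPM against 18.9 and 34.6 CPM, with all 5 fitted higher. Smooth muscle markers went the other way, at 3460 and 2024 CPM against 5010 and 5814 CPM, with 0 of 6 fitted higher. Some of these directions were present before treatment and others were not. At day 0 all 8 T cell markers (median 0.91) and 7 of 8 macrophage markers (median 0.70) were fitted higher in WT mice, with 0 called. Smooth muscle markers were the reverse of day 15, with 5 of 6 fitted higher in WT mice (median 0.28). Goblet cell markers had a median of -0.12 at day 0, beside -1.54 at day 15.
In the WT response, where the *Gsdmc* genes fell most, 5 of the 6 smooth muscle markers were called lower, from sums of 6894 and 9450 CPM in untreated WT mice. Over all tested genes 7.74% were called in that response, in either direction. Goblet cell markers were called lower for 3 of 8 and colonocyte markers for 2 of 9. Neutrophil markers were called higher for 4 of 6, macrophage markers for 4 of 8 and T cell markers for 2 of 8, and 0 pan-epithelial, tuft cell or fibroblast markers were called. In the *Hsf1* null response 0 smooth muscle, goblet cell, macrophage or tuft cell markers were called. There 1 neutrophil, 1 T cell and 1 pan-epithelial marker were called higher, 1 fibroblast marker lower, and 1 colonocyte marker higher and 2 lower. With 11.8% of all tested genes called in either direction there, nothing is read from these few calls.
At day 15, WT replicate 2 had the higher summed level in 8 of the 9 marker lists, all but smooth muscle. The sums were farther apart for colonocyte markers (1215 and 2990 CPM) than for pan-epithelial ones (16353 and 16976 CPM). The same mouse had the higher *Gsdmc2*, *Gsdmc3*, *Gsdmc4* and *Gsdmd* levels. With 2 mice this is a description only.

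Genes beside the gasdermins were examined as well, since all lie on the chromosome of *Hsf1*. Leaving out the pseudogene *Gsdmcl-ps*, which lies nearest to *Gsdmc4* and was fitted lower in WT mice at day 15 (-2.22, not called), the 3 tested genes on each side of the *Gsdmc* cluster were *9930014A18Rik*, *Myc* and *Pvt1* before it and *Fam49b*, *Asap1* and *Efr3a* after it. These 6 had log2 fold changes from 0.03 to 1.46 at day 15, toward higher levels in WT mice, and 0 of the 6 were called in any comparison. Around *Gsdmd*, the genes *Zfp41*, *Top1mt*, *Zc3h3*, *Naprt*, *Eef1d* and *Tigd5* ran from -1.20 to 0.22, and 0 of them were called in any comparison either. Within 15 Mb of *Hsf1*, a distance that takes in every gasdermin listed and was set after their positions were seen, 20 of 280 other tested genes (7.14%) were called at day 15, beside 3.17% over all tested genes. Within 1 Mb it was 2 of 60 (3.33%).

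The genes whose levels followed each gasdermin most closely were named by the smallest root mean square difference of centred log2 CPM over the 8 mice, among 11511 genes with a mean of at least 5 CPM. For *Gsdmc2* they were *Tgm3*, a transglutaminase (0.44 log2 units), *Gm1123* (0.51) and *Abcb1a*, an efflux pump of the epithelium (0.52), all nearer than *Gsdmc3* (0.63) or *Gsdmc4* (1.21). For *Gsdmc3* the nearest gene of all was *Gsdmc2*, followed by the cytochrome P450 genes *Cyp2f2* (0.69) and *Cyp2c55* (0.71) and by *Sycn* (0.73). For *Gsdmc4* they were *Aqp8* (1.48), *Tgm3* (1.49) and *Cyp2c55* (1.50), farther away than *Gsdmc3* (1.16) and *Gsdmc2*.
Being chosen by likeness, these genes repeat the pattern. *Tgm3* was at 46.2 and 64.9 CPM in WT mice and 1145 and 246 CPM in null mice at day 15, and at between 718 and 1188 CPM in the 4 untreated mice. *Abcb1a* was at 25.4 and 31.5 CPM in WT mice, against 190.1 and 98.0 CPM in null mice at day 15, and it was called lower in the *Hsf1* null response too (log2 fold change -1.56, adjusted p = 0.0211 from edgeR). For *Gsdmd* the nearest were *Mvp*, the major vault protein (0.16), *Myd88*, the adaptor of Toll-like and interleukin 1 receptors (0.17), and *Gprc5a*, a membrane receptor (0.17). *Myd88* was called higher in the WT response (1.37, adjusted p = 0.0328) and *Mvp* in the *Hsf1* null response (1.21, adjusted p = 0.0458 from edgeR), and 0 of the 3 differed between genotypes.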

How the data were processed

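RNA of the distal colon was made into polyA libraries with the Lexogen SENSE mRNA-Seq kit V2. The authors aligned reads to mm10 with STAR and deposited raw counts per gene symbol, without normalization. The counter, annotation and use of strand are not given in the sources used here. The second deposited table holds the same counts divided by a DESeq2 size factor per sample and was not used. Samples were grouped by the genotype and day in their labels. The tests used edgeR 4.0.16 under R 4.3.3, with TMM normalization and 1 quasi-likelihood model of the 4 groups over all 8 samples. Genes entered the tests when their normalized count averaged above 5 (14371 genes). SE is the absolute log2 fold change divided by the square root of F. P-values were adjusted over all tested genes of a comparison. They rest on a spread estimated for each gene over the 4 groups of 2 mice and moderated across genes, not on the mice compared alone. Log2 CPM used a prior count of 2. On simulated data with 200 of 14371 genes changed at day 15, edgeR recovered 176 with 11 false calls and DESeq2 1.42.0 recovered 188 with 31. The planted changes were all large, in WT mice only and not in the genes of lowest level. These rates do not carry over to smaller changes.

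Members and gene lists were chosen with earlier results of these data known, and members were named in every comparison. Other genes were named by rule: other gasdermins, *Hsf1*, called genes of the lists (at most 4 per direction), the 3 tested genes on each side of a locus, and the 3 nearest profiles. *Casp1*, *Casp8*, *Stat6*, *Aqp8*, *Ngp*, *S100a8* and the untested type 2 genes were named after their values were seen. The values of 1 gene, counted in its list, are not reported here. Positions, exon lengths and shared windows come from GENCODE M21 on GRCm38, in which 15276 of the 15859 symbols were found as such and 451 under an older name. Alternatives were DESeq2, edgeR with the size factors of DESeq2, no filter, filterByExpr, no threshold on the fold change, thinned counts, only the groups compared, the replicate number as a block and each mouse left out.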

Additional observations from a re-analysis of the deposited data

How the results depend on the processing

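With 2 mice per group, a single mouse or the sharing of spread across groups decides several calls. The counts of called gasdermins were 2 at day 15, 0 at day 0, 3 in the WT response, 0 in the *Hsf1* null response and 0 for the interaction. With only the groups compared, the count at day 15 was 0. With DESeq2 it was 1 in the *Hsf1* null response (*Gsdmd*) and 2 for the interaction. Leaving out each mouse gave between 1 and 3 at day 15, 0 at day 0, between 2 and 4 in the WT response, 0 in the *Hsf1* null response and between 0 and 1 for the interaction (*Gsdmc3*, adjusted p = 0.0145 from edgeR without replicate 2 of *Hsf1* null day 15). Under every alternative run, *Gsdmc2*, *Gsdmc3* and *Gsdmc4* had negative log2 fold changes at day 15, in the WT response and for the interaction. Small differences turned: *Gsdmc3* at day 0 was 0.026 with the replicate block, and leaving out a mouse gave ranges of -0.15 to 0.35 for *Gsdmc2*, -0.41 to 0.52 for *Gsdmc3* and -0.44 to 0.45 for *Gsdmd* at day 0, -0.40 to 0.50 for *Gsdmd* at day 15, -0.41 to 1.84 for *Gsdmc4* in the *Hsf1* null response and -0.33 to 0.58 for *Gsdmd* in the interaction. The cause was not tested.

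Called inflammasome and pyroptosis genes were 8 at day 15, 1 at day 0, 8 in the WT response and 4 for the interaction with DESeq2, 1 in the WT response with the replicate block and 0 at day 15 with only the groups compared. Leaving out each mouse gave 0 to 4 at day 15, 0 at day 0, 0 to 5 in each response and 0 to 2 for the interaction. Called type 2 genes were 4 at day 15, 3 in the *Hsf1* null response and 1 for the interaction with DESeq2. They were 0 at day 15 and 2 in the *Hsf1* null response with the block or with thinned counts, and 0 at day 15, 2 in the WT response and 3 in the *Hsf1* null response with only the groups compared. Leaving out each mouse gave 0 to 1 at day 15, 0 to 4 in the WT response, 0 to 2 in the *Hsf1* null response and 0 to 1 for the interaction.

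Same-numbered mice are different animals, and the labels tie no number to a batch. The correlation of their deviations from the group means was between 0.11 and 0.15 for the 3 pairs of groups without WT day 0 and between -0.29 and 0.04 for the 3 pairs with it, so not every pair was above 0.1 and the samples were not treated as paired. The replicate block changed no call of a gasdermin, and it left 343 genes called at day 15. With only the groups compared, 6 were called there. Leaving out each mouse gave between 12 and 871 at day 15, between 113 (without replicate 2 of WT day 15) and 1331 in the WT response and between 0 (without replicate 2 of *Hsf1* null day 0, by edgeR) and 1888 in the *Hsf1* null response. Over all tested genes DESeq2 called 1197 at day 15, 18 at day 0, 1737 in the WT response and 130 for the interaction. A block with the WT mice of day 0 exchanged, added after the data were seen, called 3 gasdermins at day 15 (*Gsdmc4* added), 4 in the WT response and 1 for the interaction, 6 and 7 pyroptosis genes at day 15 and in the WT response, 2 type 2 genes in the *Hsf1* null response, and 1314 genes in all at day 15, and gave *Gsdmc3* 0.029 at day 0.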
